A study of Mus musculus with 12 samples.

Results

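The laminin chains were followed in sorted cells of the newborn mouse testis. The members were the 9 genes named Lama1, Lama2, Lama3, Lama4, Lama5, Lamb1, Lamb2, Lamb3 and Lamc1, out of 54532 genes in the count table. They were chosen by name, with earlier results of these data known. All 9 were found, and all 9 passed the low-count filter in every comparison. RNA was measured in bulk in 12 libraries of mice with the Tg(Pou5f1-EGFP)2Mnn transgene, in which regulatory sequence of Pou5f1 drives green fluorescent protein in germ cells. GFP-positive cells were collected as germ cells and GFP-negative cells as somatic cells at postnatal day 1 (PN1). Dams received dexamethasone (dex), an agonist of the glucocorticoid receptor, at 10 μg per g by intraperitoneal injection on E17.5 and again on E18.5, and their pups received it under the skin at PN0; controls received saline on the same days. Germ and somatic cells of each treatment gave 4 groups (saline germ, dex germ, saline somatic, dex somatic) of 3 libraries. Each library held testes pooled from at least 2 dosed litters, per the study's methods, so that a value is a mean over animals. The somatic group is every GFP-negative cell type of the testis together.

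Laminins are large secreted glycoproteins built from an α, a β and a γ chain that join in a coiled coil before leaving the cell. They polymerise on the cell surface, bind integrins and dystroglycan, and start the sheet on which collagen IV, nidogen and perlecan are laid down. In the testis such a sheet encloses each seminiferous tubule, between the Sertoli cells inside and the peritubular myoid cells outside. The members comprise all 5 α chains, 3 β chains and Lamc1, the γ chain shared by most laminins. Lamc3, a further γ chain, is not a member and is given where a reading of Lamc1 or of the γ chains calls for it.

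Dex acts through the glucocorticoid receptor, which binds DNA at paired hexamers, so the start regions of some chains were read for that motif. Each RefSeq promoter window on GRCm38.p6 held 250 bases before and 50 after an annotated start. Such windows were read for 5 of the 9 members, in 6 windows (Lamb3 has a pair). No window was read for Lama1, Lama3, Lama4 or Lamc1, so the motif was not tested in these chains. The letters searched on either strand were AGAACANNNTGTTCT for the full element, which holds the hexamer AGAACA and its reverse complement TGTTCT. None of these 6 windows held the full element, which was found in 3 of 32851 windows of all genes (0.00913%). The hexamer or its reverse complement was present in 2 of the 6 windows, those of Lama2 and of the second Lamb3 start, against 18.97% of all windows. A match is a description of letters only. The 250 bases before the start are shown for Lama2, the leading α chain of somatic cells and the chain with the steadiest change under dex there, and for Lama5, the leading α chain of germ cells. Lama2 lies at chr10:26980036-27619758 on the minus strand, and its window at chr10:27616943-27617192 falls inside the gene's span in GENCODE M21, in sequence with no annotated exon. Lama5 lies at chr2:180176373-180225859 on the minus strand, and its window at chr2:180225860-180226109 stands directly before the gene. Both are written 5′ to 3′ on the minus strand, with the hexamer in capitals.
Lama2: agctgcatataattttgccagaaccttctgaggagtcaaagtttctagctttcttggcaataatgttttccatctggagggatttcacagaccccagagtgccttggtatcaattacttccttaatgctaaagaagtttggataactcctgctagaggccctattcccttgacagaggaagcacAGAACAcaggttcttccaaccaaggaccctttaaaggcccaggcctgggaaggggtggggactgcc
Lama5: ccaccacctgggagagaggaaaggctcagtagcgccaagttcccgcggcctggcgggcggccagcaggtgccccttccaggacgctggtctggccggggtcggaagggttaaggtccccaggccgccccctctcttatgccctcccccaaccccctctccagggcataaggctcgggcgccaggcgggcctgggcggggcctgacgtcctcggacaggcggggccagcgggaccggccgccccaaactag
The hexamer of Lama2 began 66 bases before the start, and the Lama5 window held none.

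The other members lie elsewhere in the genome, at positions that the files and GENCODE M21 give alike on GRCm38. Lama1 is at chr17:67697259-67822647 with 63 exons in its longest coding transcript, Lama3 at chr18:12333819-12583013 with 75 and Lama4 at chr10:38965515-39110188 with 38, all on the plus strand. Lama2 has 65 such exons and Lama5 79. Lamb1 is at chr12:31265234-31329644 with 33 exons and Lamb2 at chr9:108479736-108490530 with 33, both on the plus strand, and Lamc1 is at chr1:153218922-153332786 on the minus strand with 28. Lamb3, on the plus strand of the same chromosome, has 27. Reads were counted per gene, so that transcripts of a gene cannot be told apart.

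Total counts of the 12 libraries lay between 18459692 and 25178477, and 3 counts, the most that a count of 0 allows, equal 0.119 to 0.163 CPM (counts scaled to library depth); such limits cover counting error only. Summed CPM of 7 germ cell markers was 2612 to 2881 in germ libraries and 7.77 to 9.01 in somatic libraries. Summed CPM of 9 Sertoli cell markers was 60.4 to 101 in germ libraries and 5819 to 6597 in somatic libraries. Labels and sort thus matched in every library. No batch or date is given in the labels. Levels below are CPM after TMM scaling where libraries are compared, and FPKM (fragments scaled for gene length and depth) as deposited where genes are compared, each as the mean ± SD of 3 libraries.

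Germ and somatic cells carried different sets of laminin chains (plot of levels by library). In saline somatic cells the order of FPKM among the members was Lamb1, Lamc1, Lamb2, Lama2, Lama1, Lama4, Lama3, Lama5 and Lamb3. Lamb1, the most widespread β chain, stood at 96.6 ± 7.43 FPKM, Lamc1 at 42.7 ± 3.14 and Lamb2 at 41.2 ± 3.03. Lama2, the α chain of muscle and peripheral nerve basement membranes, stood at 28.7 ± 3.15 FPKM, and Lama1, the α chain of early embryonic basement membranes, at 24.5 ± 1.32. Of neighbours in that order, only Lamc1 and Lamb2 overlapped between libraries. The other 4 members followed, with Lama4 at 5.96 ± 0.394 FPKM, Lama3 at 4.90 ± 0.411, Lama5 at 2.42 ± 0.113 and Lamb3 at 0.186 ± 0.0269. Lamc3 reached 66.5 ± 4.57 FPKM in the same libraries, above Lamc1 in each of them.

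In saline germ cells Lamb1 was again the highest member, at 35.6 ± 2.43 FPKM, followed by Lamc1 at 16.04 ± 0.563. Lama5, an α chain of many epithelial and vascular basement membranes, came next at 14.4 ± 2.36 FPKM and overlapped Lamc1. Lama3, the α chain of the laminin that anchors epidermis, stood at 7.34 ± 0.602 FPKM. Lama1 at 3.70 ± 0.335 and Lamb2 at 3.50 ± 0.264 FPKM overlapped each other. Lama4 at 0.470 ± 0.0559, Lama2 at 0.373 ± 0.0661 and Lamb3 at 0.167 ± 0.0370 FPKM were lowest, and Lama4 and Lama2 did not overlap.

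The order of the members under dex was close to that in saline. In dex germ cells Lamb1 stood at 48.5 ± 0.899 FPKM, Lamc1 at 18.4 ± 0.624, Lama5 at 12.7 ± 0.378 and Lama3 at 10.05 ± 0.616, each apart from the next. Lamb2 at 4.89 ± 0.557 and Lama1 at 4.32 ± 0.217 FPKM overlapped, as did Lamb3 at 0.295 ± 0.105 and Lama2 at 0.289 ± 0.0740, with Lama4 between these pairs at 0.498 ± 0.0553. In dex somatic cells Lamb1 stood at 117 ± 13.0 FPKM, and Lamb2 (44.4 ± 3.21), Lamc1 (40.2 ± 4.40) and Lama2 (40.2 ± 3.50) overlapped from neighbour to neighbour. Lama1 followed at 19.9 ± 0.865 FPKM, Lama4 at 7.17 ± 0.683, Lama3 at 3.49 ± 0.244 and Lama5 at 2.61 ± 0.646, of which Lama3 and Lama5 overlapped. Lamb3 was lowest at 0.568 ± 0.119 FPKM.

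**Figure D1:**
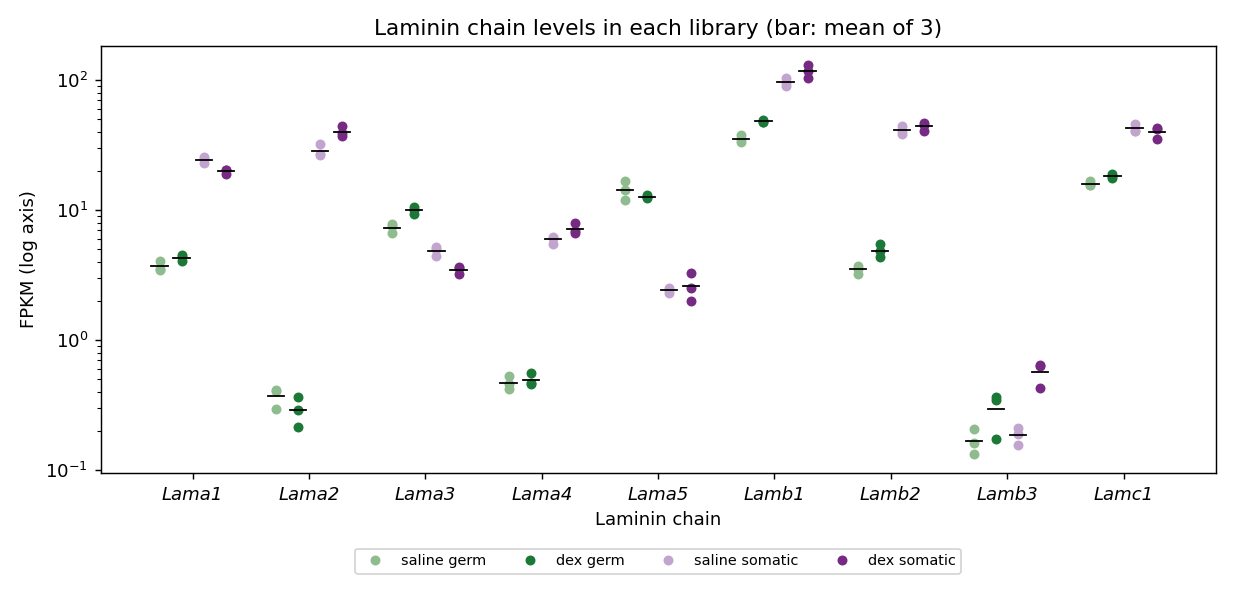
FPKM (log axis) of the 9 laminin chains in each of the 12 libraries, with points for libraries and a black bar for the mean of 3. Lama5 and Lama3 sit higher in germ cells than in somatic cells, Lama2 and Lama4 lie far lower in germ cells, and Lamb3 is near the bottom in every group.

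The question of the germ with somatic comparison is which chains each population carried. In saline, edgeR's quasi-likelihood test with Benjamini-Hochberg adjustment over all genes called 8 of the 9 members, 2 higher and 6 lower in germ cells. Of all 18870 genes tested, 39.8% were called higher and 36.7% lower, so that a call as such is common in this comparison. The median log2 fold change was -1.57 over the members and 0.072 over all genes. Scaling by library totals moved the median of all genes from 0.072 to 0.21, a shift that turned no member's direction.

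Lama5 measured 165, 191 and 136 CPM in saline germ cells and 29.2, 28.3 and 28.6 CPM in saline somatic cells. Every germ library was above every somatic library, and the log2 fold change was 2.45 ± 0.12 (SE; edgeR adjusted p = 3.22e-09, n = 3 against 3). Lama3 measured 84.5, 72.0 and 80.8 CPM in germ cells and 54.8, 61.3 and 49.1 CPM in somatic cells. The Lama3 groups did not overlap either, with a smaller difference of 0.46 ± 0.11 on the log2 scale (edgeR adjusted p = 0.00196). These were the only members higher in germ cells.

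Lama2 showed the widest gap, with 6.73, 6.78 and 4.83 CPM in saline germ cells against 453, 573 and 447 CPM in saline somatic cells. Its log2 fold change was -6.39 ± 0.15 (edgeR adjusted p = 8.27e-12). Lama4, an α chain of vessel walls and mesenchyme, was lower by -3.79 ± 0.13 on the log2 scale (adjusted p = 1.09e-10), at 5.70 ± 0.685 against 75.0 ± 2.57 CPM. Lamb2, a β chain of the kidney filter and the neuromuscular junction, was lower by -3.68 ± 0.096 (adjusted p = 1.35e-11), at 21.4 ± 1.60 against 262 ± 19.8 CPM. Lama1 was lower by -2.85 ± 0.099 (adjusted p = 1.28e-10), at 35.9 ± 3.37 against 248 ± 20.9 CPM.

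The chains shared by most laminins differed least among those lower in germ cells. Lamb1 measured 332, 352 and 377 CPM in saline germ cells and 965, 1127 and 918 CPM in saline somatic cells, a log2 fold change of -1.57 ± 0.091 (edgeR adjusted p = 1.2e-08). Lamc1 measured 131, 139 and 129 CPM in germ cells and 347, 416 and 346 CPM in somatic cells, a log2 fold change of -1.54 ± 0.088 (adjusted p = 1e-08), where Lamc3 was lower by -7.09 ± 0.16 (adjusted p = 6.56e-12). The germ and somatic groups of Lamb1 and of Lamc1 did not overlap. Lamb3 counts were 20, 20 and 28 in saline germ cells and 26, 26 and 30 in saline somatic cells. That is 1.11 ± 0.240 against 1.28 ± 0.152 CPM, a difference that did not pass the test (log2 fold change -0.27 ± 0.45, edgeR adjusted p = 0.595).

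The germ levels can be set beside those of genes that mark somatic cells (plot of germ levels as a percentage). Mean CPM in saline germ cells as a percentage of that in saline somatic cells was 1.24% for Lama2. The same percentage was 1.47% for the summed 9 Sertoli cell markers, 1.61% for 6 stromal fibroblast markers and 1.63% for 6 peritubular smooth muscle markers. Single markers of the peritubular list ran from 0.334% for Acta2 to 70.8% for Tagln. Lama2 thus stood at the level of these 3 sums, though not of every marker in them. Lama4 stood at 7.59%, Lamb2 at 8.16%, Lama1 at 14.5%, Lamb1 at 35.3% and Lamc1 at 36.0%. Other lists lay higher, with 6.47% for 6 Leydig cell markers, 7.86% for 4 pericyte markers, 9.36% for 6 macrophage markers and 2.87% for 5 erythroid markers. The summed endothelial list (7 genes) stood at 39.2% and the coelomic and rete epithelium list (6 genes) at 59.9%. Some members of these last lists, such as Pecam1 and Krt19, were themselves higher in germ cells. What part other cells had in the germ levels of the laminin chains was not tested.

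**Figure D2:**
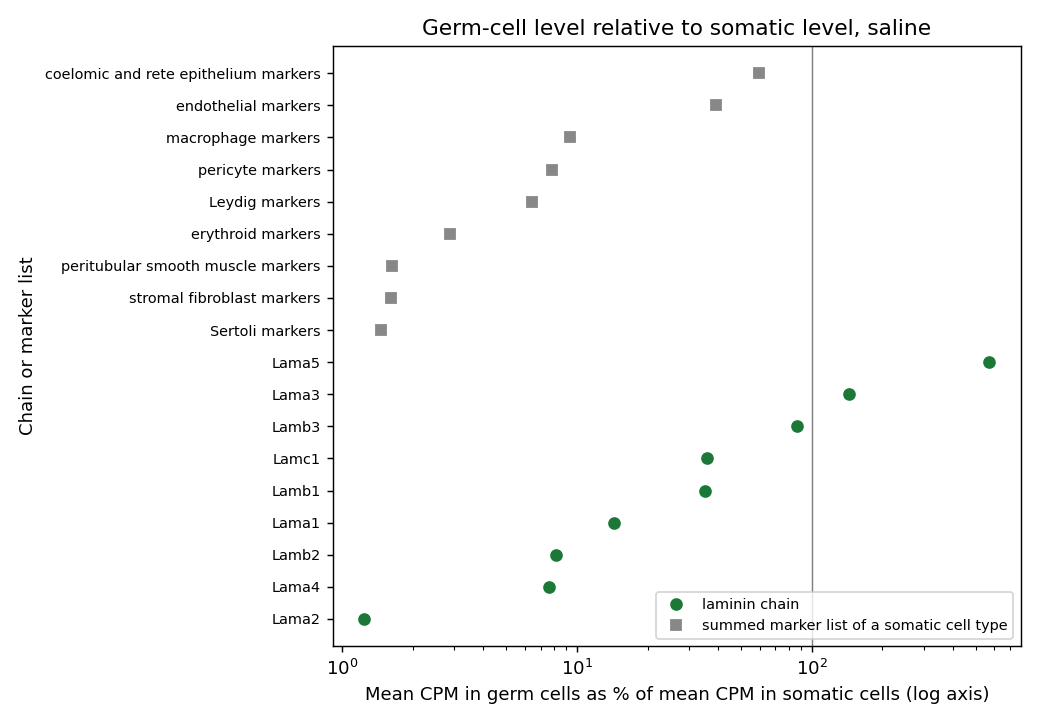
Mean CPM in saline germ cells as a percentage of mean CPM in saline somatic cells (log axis), for the 9 laminin chains (circles) and for summed marker lists of somatic cell types (squares), each from 3 against 3 libraries. Lama2 lies at 1.24%, beside the Sertoli, stromal and peritubular lists, and Lama3 and Lama5 lie to the right of 100%.

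In dex-treated animals all 9 members were called between germ and somatic cells, 2 higher and 7 lower in germ cells, where 40.5% of the 18778 genes tested were called higher and 35.7% lower. The directions were those given for saline. Lama5 was higher by 2.18 ± 0.14 on the log2 scale (edgeR adjusted p = 3.29e-08) and Lama3 by 1.42 ± 0.096 (adjusted p = 3.96e-08). Lamb3 was lower in dex germ cells at -1.05 ± 0.40 (adjusted p = 0.0301), a call that was lost without dex germ replicate 2 (adjusted p = 0.053) or 3 (0.117) and without dex somatic replicate 2 (0.0587) or 3 (0.0684), and with library totals (0.0675) or DESeq2 (0.0558). The other 6 members had log2 fold changes between -7.24 for Lama2 and -1.24 for Lamc1.

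The make-up of the α and β classes followed from these levels and is given as a description (plot of class shares). Of the summed FPKM of the 5 α chains in saline germ cells, Lama5 held 54.5% ± 4.19, Lama3 28.2% ± 4.26 and Lama1 14.1% ± 0.694. In saline somatic cells Lama2 held 43.1% ± 2.06 and Lama1 36.9% ± 0.679, and Lama5 held 3.65% ± 0.374. Lamb1 held 90.6% ± 0.514 of the β chains in saline germ cells and 69.9% ± 2.79 in saline somatic cells, with nearly all the rest from Lamb2.

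**Figure D3:**
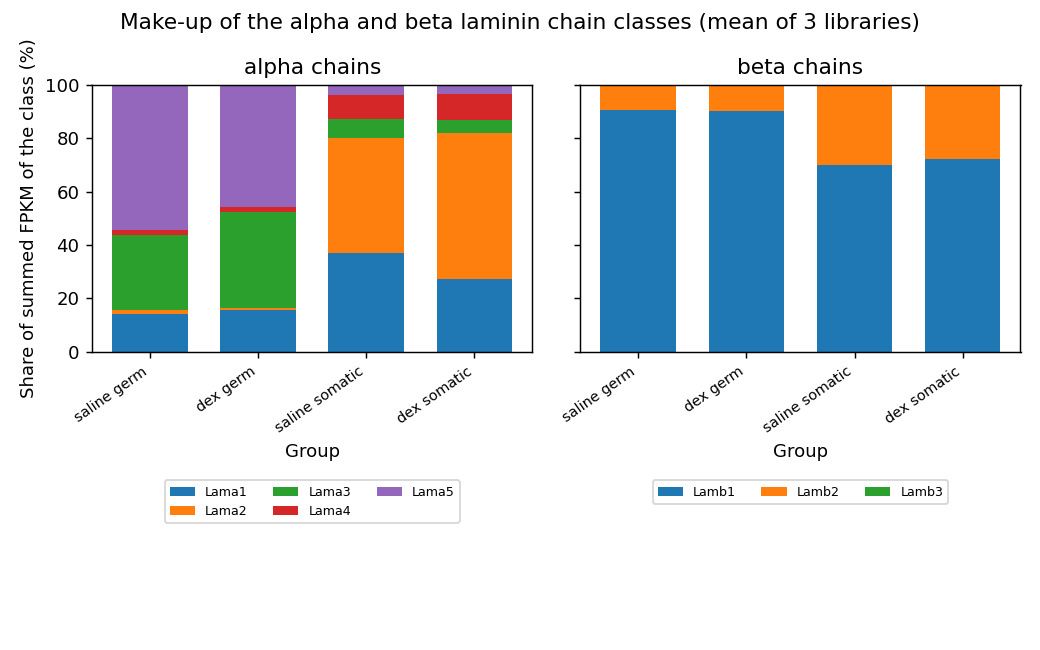
Share (%) of the summed FPKM of the α and of the β chains held by each chain in the 4 groups, as stacked means of 3 libraries. Lama5 and Lama3 make up most of the α chains in germ cells and Lama2 and Lama1 in somatic cells, and Lamb1 holds most of the β chains in every group; the SD between libraries was at most 4.26 percentage points.

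Setting dex against saline somatic cells asks which chains changed with glucocorticoid exposure outside the germline. Of the 9 members 2 rose and 2 fell. Over the 16766 genes tested, 2.74% were called higher and 1.17% lower, a split of 459 to 196 that became 379 to 329 with scaling by library totals. The median log2 fold change was 0.11 over the members and -0.0066 over all genes. The dex and saline libraries did not overlap for 5 of the 9 members, against 21.5% of all genes tested.

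Lama2 rose from 453, 573 and 447 CPM in saline somatic cells to 655, 726 and 624 CPM in dex somatic cells. Every dex library was above every saline library, and the log2 fold change was 0.48 ± 0.091 (edgeR adjusted p = 0.00602). The call was kept in each of the 6 fits that left out 1 library (adjusted p 0.000875 to 0.0498) and was lost with all 12 libraries in one model (0.0701) and in limma on log2(FPKM + 0.1) (0.0648) or log2(FPKM + 1) (0.0635). Lamb3, a β chain of epidermal laminin, rose from 1.28, 1.13 and 1.43 CPM (26, 26 and 30 counts) to 2.91, 4.25 and 4.30 CPM (53, 86 and 87 counts). The dex libraries were all higher, with a log2 fold change of 1.61 ± 0.41 (edgeR adjusted p = 0.0369).

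The Lamb3 call rests on few counts, and the span of the gene holds other genes. It was lost without dex somatic replicate 2 (adjusted p = 0.125) or 3 (0.126) and without saline somatic replicate 1 (0.104), 2 (0.106) or 3 (0.0852), while the log2 fold change stayed between 1.49 and 1.77. On log2(FPKM + 0.1) and log2(FPKM + 1), scales that shrink the change of a gene this low, limma gave 1.21 (0.104) and 0.40 (0.098). The gene, at chr1:193207699-193343878 on the plus strand, spans G0s2 and Hsd11b1 on the opposite strand, and the strand setting of the counting is not given in the sources used here. G0s2, an inhibitor of fat breakdown, had 589.6% of the counts of Lamb3 in somatic libraries and rose by 1.88 ± 0.16 on the log2 scale with dex (edgeR adjusted p = 6.51e-06). No exon base is shared between the genes, and the nearest exons stand 120 bases apart. Whether any reads of G0s2 or Hsd11b1 entered the Lamb3 count was not tested.

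Lama1 fell from 243, 271 and 231 CPM in saline somatic cells to 203, 199 and 188 CPM in dex somatic cells. The groups did not overlap, and the log2 fold change was -0.30 ± 0.076 (edgeR adjusted p = 0.0366). Leaving out any of the 6 libraries ended the call. The adjusted p was then 0.0758, 0.0866 and 0.177 without dex somatic replicates 1, 2 and 3, and 0.136, 0.0905 and 0.0657 without saline somatic replicates 1, 2 and 3. Lama3 fell from 54.8, 61.3 and 49.1 CPM to 39.1, 39.9 and 35.4 CPM, again with no overlap. Its log2 fold change was -0.49 ± 0.11 (adjusted p = 0.0177), and the call was lost without dex somatic replicate 1 (0.0515) or 3 (0.0932) and without saline somatic replicate 1 (0.0803) or 2 (0.0613). In limma on log2(FPKM + 0.1) and on log2(FPKM + 1) the calls of Lama1 (0.106 and 0.106) and Lama3 (0.142 and 0.147) were lost too.

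The other 5 members did not pass the test in somatic cells. Lama4 measured 76.0, 72.1 and 77.0 CPM in saline and 85.3, 96.5 and 82.1 CPM in dex, which do not overlap (log2 fold change 0.26 ± 0.097, edgeR adjusted p = 0.175). Lamb1 measured 965, 1127 and 918 CPM in saline and 1188, 1301 and 1060 CPM in dex, which overlap (0.28 ± 0.090, adjusted p = 0.117). DESeq2 and the fit with no filter on low counts called Lamb1 (adjusted p = 0.0236 and 0.0271). Lamb2, Lamc1 and Lama5 had adjusted p between 0.617 and 0.797, and Lama5 was spread most in dex, at 23.5, 28.9 and 38.5 CPM. Without dex somatic replicate 3, the library with the highest Lama5, the log2 fold change of Lama5 was -0.09 in place of 0.11.

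Lamc3 rose in somatic cells from 398, 475 and 400 CPM to 700, 682 and 589 CPM (log2 fold change 0.67 ± 0.086, edgeR adjusted p = 0.000253), while Lamc1 did not pass. The share of Lama2 among α chains was 43.1% ± 2.06 in saline and 54.7% ± 1.21 in dex, and that of Lama1 was 36.9% ± 0.679 and 27.2% ± 1.22. None of these shares overlapped between saline and dex libraries.

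Some marker lists of the somatic cell types moved in the same libraries, where 2.74% of all genes tested were called higher and 1.17% lower. Of 6 stromal fibroblast markers 3 rose with dex, and their summed CPM was 6653 to 9593 in saline and 10369 to 12578 in dex somatic libraries. Of 6 peritubular smooth muscle markers 2 rose, with sums of 1141 to 1269 and 1460 to 1619 CPM. Of 9 Sertoli cell markers none was called, and their sums overlapped, at 6089 to 6597 CPM in saline and 5819 to 6401 in dex. Of 6 macrophage markers 2 fell, with sums of 41.7 to 73.9 and 19.04 to 24.98 CPM, and of 4 pericyte, 7 endothelial and 6 Leydig cell markers 1 each fell. Of 4 erythroid markers tested 2 fell, with sums of 248 to 388 CPM in saline and 82.7 to 292 CPM in dex, which overlap. No marker of the stromal, peritubular, Sertoli or macrophage lists was at 0 in a somatic library. In bulk RNA a change in the number of cells of a type and a change in RNA per cell cannot be told apart, and the part of cell make-up in the changes of Lama2, Lama1, Lama3 and Lamb3, and in that of Lamc3, was not tested.

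Setting dex against saline germ cells asks the same of the germline. Of the 9 members 2 rose and none fell, where 0.739% of the 18550 genes tested were called higher and 0.507% lower. By unadjusted p at or under 0.05, 4 of the 9 members passed, against 14.7% of all genes tested. The median log2 fold change was 0.20 over the members and -0.0027 over all genes. The dex and saline libraries did not overlap for 4 of the 9 members, against 20.1% of all genes tested.

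Lamb1 rose from 332, 352 and 377 CPM in saline germ cells to 472, 474 and 489 CPM in dex germ cells. All dex libraries were above all saline libraries, and the log2 fold change was 0.43 ± 0.066 (edgeR adjusted p = 0.00661). The call was lost without saline germ replicate 1 (adjusted p = 0.063), and it was kept in the other 5 fits that left out 1 library. Lama3 rose from 84.5, 72.0 and 80.8 CPM to 107, 114 and 101 CPM, also without overlap (0.43 ± 0.087, edgeR adjusted p = 0.0287). That call was lost without dex germ replicate 1 (0.0872) or 2 (0.0603) and without saline germ replicate 1 (0.0754) or 2 (0.15) and with all 12 libraries in one model (0.0621). Limma on log2(FPKM + 0.1) and on log2(FPKM + 1) called neither Lamb1 (0.0794 and 0.0723) nor Lama3 (0.141 and 0.145).

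Of the 7 members that did not pass in germ cells, 2 had groups that did not overlap. Lamb2 measured 19.7, 22.9 and 21.6 CPM in saline and 29.1, 33.1 and 26.3 CPM in dex (log2 fold change 0.46 ± 0.13, edgeR adjusted p = 0.0978). It was called by DESeq2 (adjusted p = 0.0249), with no filter on low counts (0.0444) and with all 12 libraries in one model (0.0422). Lamc1 measured 131, 139 and 129 CPM in saline and 151, 157 and 146 CPM in dex (0.17 ± 0.072, adjusted p = 0.266). Lama5, the leading α chain of these cells, measured 165, 191 and 136 CPM in saline and 149, 143 and 141 CPM in dex, which overlap (-0.20 ± 0.10, adjusted p = 0.402). Lama1, Lama2, Lama4 and Lamb3 had adjusted p between 0.381 and 0.933.

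Among the α chains of germ cells the share of Lama3 was 28.2% ± 4.26 in saline and 36.0% ± 1.31 in dex, and that of Lama5 was 54.5% ± 4.19 and 45.7% ± 1.22. Both sets of shares were apart between the treatments. Summed markers of other cell types in the same germ libraries were 85.6 to 101 CPM in saline and 60.4 to 71.6 CPM in dex for Sertoli cells, with 1 of 8 tested markers lower. They were 14.9 to 21.8 and 25.4 to 29.7 CPM for peritubular smooth muscle, with 0 of 6 called. They were 9.07 to 11.8 and 4.83 to 8.79 CPM for Leydig cells, with 0 of 4 tested called, and 7.70 to 9.22 and 4.44 to 7.06 CPM for erythroid cells, with 0 of 3. The sums of each of these 4 lists did not overlap between saline and dex. Those of the stromal fibroblast, endothelial, pericyte, macrophage, and coelomic and rete epithelium lists overlapped. Of all single genes tested, 20.1% did not overlap between the treatments and 0.507% were called lower. Fshr, of the Sertoli list, was at 0 in 2 dex germ libraries. The part of such cells in the changes of Lamb1 and Lama3 was not tested.

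**Figure D4:**
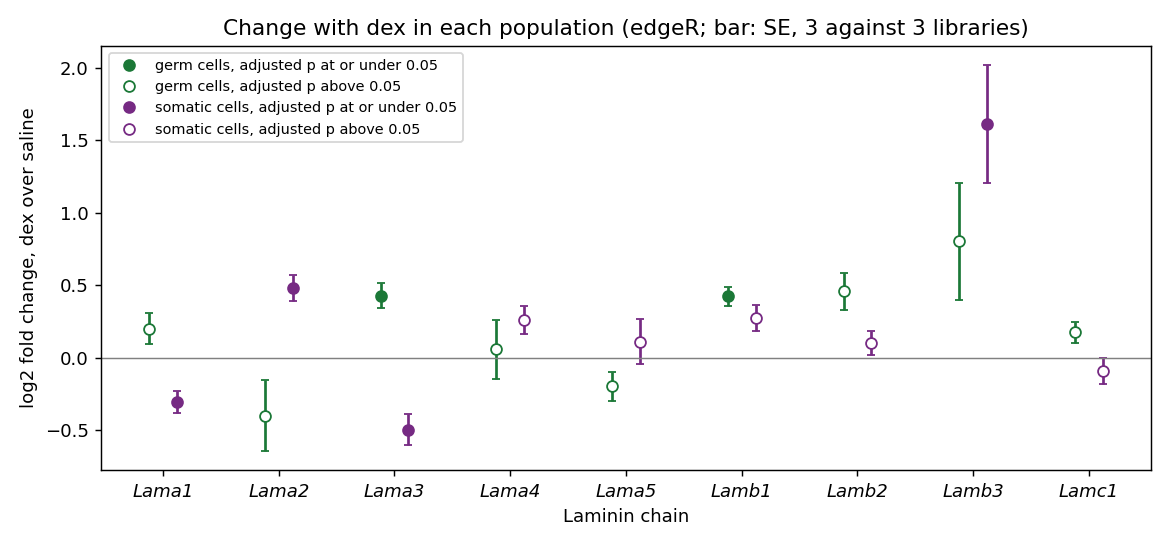
Log2 fold change of dex over saline for the 9 laminin chains in germ cells (green) and somatic cells (purple), with SE bars from edgeR on 3 against 3 libraries; filled points have an adjusted p at or under 0.05. Lama3 lies above 0 in germ cells (0.43) and below 0 in somatic cells (-0.49).

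Whether dex acted differently on germ and on somatic cells was tested as the germ effect minus the somatic effect, over all 12 libraries. Of the 9 members 1 was called, Lama3, where 0.827% of the 20551 genes tested were called in either direction, 85 higher and 85 lower (148 and 73 with library totals). Lama3 rose in germ cells and fell in somatic cells, and the difference was 0.96 ± 0.14 on the log2 scale (edgeR adjusted p = 0.0063). The call was kept in all 12 fits that left out 1 library (adjusted p 0.00445 to 0.0185) and under all 8 other settings (2.23e-07 to 0.0295). The difference for Lama1 was 0.54 ± 0.12 (adjusted p = 0.0514) and that for Lama2 was -0.85 ± 0.22 (0.085), neither of which passed. Both were called by DESeq2 (0.0035 and 0.00304), with no filter on low counts (0.0113 and 1.74e-05) and with at least 10 counts in every library (0.0212 and 0.039), and Lama1 also with library totals (0.0207) and RLE size factors (0.0447). Lama1 was called without saline germ replicate 2 (0.0313), and Lama2 without dex germ replicate 1 (0.0352), saline germ replicate 3 (0.0389) or saline somatic replicate 2 (0.0425). Lamb1, which rose in germ cells, differed between the populations by 0.19 ± 0.13 on the log2 scale (adjusted p = 0.571), which did not pass. The other 5 members had adjusted p between 0.208 and 0.758.

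The other parts of the laminin system were read from fixed lists. Of 26 other basement membrane genes all were called between saline germ and somatic cells, 4 higher and 22 lower in germ cells. Their median log2 fold change was -2.92, and of all genes tested 39.8% were called higher and 36.7% lower. Col4a5, a collagen IV chain, was lower by -6.87 ± 0.32 (edgeR adjusted p = 1.51e-09), Col15a1 by -6.81 ± 0.17 (1.06e-11) and Sparc, a collagen-binding glycoprotein, by -6.74 ± 0.11 (1.7e-12). With dex, Col15a1 fell by 0.58 on the log2 scale in somatic cells (adjusted p = 0.0108) and Egflam, the dystroglycan ligand pikachurin, rose by 0.47 (0.0104), the only 2 of the 26 called there. Of all genes tested in somatic cells, 2.74% were called higher and 1.17% lower. In germ cells only Fbln1, the matrix protein fibulin, rose, by 0.52 ± 0.089 (0.0112), where 0.739% of all genes were called higher. In the difference between populations Frem2 was called at 1.44 ± 0.23 (0.00757) and Sparc at -0.61 ± 0.11 (0.0149), against 0.827% of all genes.

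Of 13 laminin receptor genes 10 were called between saline germ and somatic cells, 3 higher and 7 lower in germ cells. Calls are common in this comparison, with 39.8% of all genes tested higher and 36.7% lower. The largest differences were in Bcam, a receptor for Lama5, at -6.79 ± 0.25 (edgeR adjusted p = 1.84e-10), the syndecan Sdc2 at -3.74 ± 0.15 (3.71e-10) and Itgb4, the integrin partner of Itga6 in hemidesmosomes, at 2.02 ± 0.31 (8.33e-05). With dex, Itga6 fell by 0.35 on the log2 scale in somatic cells (adjusted p = 0.0146). It was the only receptor of 13 called there, where 1.17% of all genes tested were called lower. In germ cells none of the 12 tested was called by edgeR, and 2 had an unadjusted p at or under 0.05, near the 14.7% of all genes.

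Enzymes that put the laminin-binding sugar on dystroglycan were 13 of 16 called between saline germ and somatic cells, 1 higher and 12 lower in germ cells. The shares over all genes tested were 39.8% higher and 36.7% lower. Pomk was lower by -2.87 ± 0.17 (edgeR adjusted p = 1.55e-08) and Pomgnt2 by -2.43 ± 0.16 (4.51e-08). With dex none of the 16 was called by edgeR in either population, and 4 in germ cells and 2 in somatic cells had an unadjusted p at or under 0.05, where 14.7% and 16.1% of all genes tested had. Of 16 matrix proteases and inhibitors 13 were called between saline germ and somatic cells, 1 higher and 12 lower, against the same 39.8% and 36.7% of all genes. The widest were Mmp9 at 7.21 ± 0.19 (1.38e-11), Adamts5 at -7.06 ± 0.19 (1.78e-11) and Adamts1 at -6.30 ± 0.15 (8.41e-12).

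Among the proteases and inhibitors 5 rose and 1 fell with dex in somatic cells. Of all genes tested there, 2.74% were called higher and 1.17% lower. Timp2, an inhibitor of matrix metalloproteinases, rose by 0.70 ± 0.095 on the log2 scale (edgeR adjusted p = 0.000375), and the matrix proteases Adamts5 by 0.57 ± 0.095 (0.00223) and Adamts1 by 0.49 ± 0.096 (0.00869). In germ cells none of the 16 was called by edgeR, and 3 had an unadjusted p at or under 0.05, near the 14.7% of all genes. Timp1 was called in the difference between populations at -1.32 ± 0.26 (0.0248), where 0.827% of all genes tested were called.

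Patterns most like the leading member of each class were sought over the 6 somatic libraries, as Pearson's r of log2 CPM. The search covered 10152 protein-coding genes. Lamc1 was the only γ member, though Lamc3 stood above it in every somatic library. The points share their libraries and their treatment groups, and the values are a description. For Lama2 the nearest were Fam13a (r = 0.998), Adamts1 (0.995) and Jph4 (0.995). For Lamb1 they were Matn2 (0.991), Bicc1 (0.991) and Prex1 (0.990), and for Lamc1 Gnb1 (0.994), Golph3 (0.989) and Tmem245 (0.988).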

How the data were processed

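Libraries were assigned to 4 groups of 3 by their labels. The authors sequenced poly-dT selected mRNA as paired ends and, per the labels' processing notes and the study's methods, aligned reads to mm10 with HISAT2 2.0.5, counted them with featureCounts 1.5.0-p3 and used DESeq2 1.20.0; the annotation release and strand setting are not given in the sources used here. The deposited counts are raw reads per gene. The deposited FPKM values are those counts per gene length and depth. Fold changes and p-values from the authors' own dex comparison were not used.

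Raw counts of the 6 libraries of a comparison were fitted with the quasi-likelihood test of edgeR 4.0.16 in R 4.3.3 (TMM, filterByExpr at a minimum count of 10), and the difference of dex effects over all 12 libraries. A gene was called at a Benjamini-Hochberg adjusted p at or under 0.05 over all genes tested; tests were two-sided. The SE is the log2 fold change divided by the square root of F. CPM used TMM over all 12 libraries, and log2 CPM a prior count of 2. Total counts lay between 18459692 and 25178477. Alternatives used DESeq2 1.42.0, limma 3.58.1, other filters and scalings, a replicate block and fits without each library. Code was tested on simulated data.

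The members and gene lists were chosen with earlier results of these data known. All 9 chains were named; each list gave at most 4 called genes of largest change per dex comparison and at most 3 between germ and somatic cells; similar patterns were the 3 protein-coding genes of highest r with a mean somatic CPM of at least 10. G0s2 and Hsd11b1 were added after the data were seen. Markers are named only to describe their lists, and Fshr, Pecam1, Krt19, Acta2 and Tagln were picked after their values were seen. Some genes that the rule would name are not reported here.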

Additional observations from a re-analysis of the deposited data

Results flagged for a closer look

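Lama3 stood out because its response to dex differed between the populations by a test of the difference itself. The difference of the dex effects, germ minus somatic, was 0.96 on the log2 scale (edgeR adjusted p = 0.0063), with all 3 dex germ libraries above and all 3 dex somatic libraries below the saline libraries of their own population.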

How the results depend on the processing

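Of 720 values of single chains under an alternative, 655 kept direction and side of the threshold, 43 lost a call, 18 gained one and 4 reversed. Reversed were, in germ cells, Lama4 without dex germ replicate 3 (-0.0345) and without saline germ replicate 1 (-0.0122; range without 1 library -0.0345 to 0.158), and, in somatic cells without dex somatic replicate 3, Lama5 (range -0.0895 to 0.268) and Lamc1 (range -0.134 to 0.0012), none of them called; the cause was not tested. With dex in germ cells 231 genes were called. The number was 675 by DESeq2, 767 with no filter on low counts and 142 with all 12 libraries in one model. It was 6 and 12 by limma on log2(FPKM + 0.1) and log2(FPKM + 1), and 49 to 265 without 1 library (fewest without saline germ replicate 1). Laminin calls higher were 2, but 3 by DESeq2 or with no filter. They were 0 by limma on either scale and 0 to 2 without 1 library. In somatic cells 655 genes became 1061 with no filter, 251 and 281 by limma and 354 to 547 without 1 library. Laminin calls higher were 2 in these cells, but 3 by DESeq2 or with no filter and 1 with all 12 libraries. They were 0 by limma and 1 to 2 without 1 library. Calls lower were 2, but 0 by limma and 0 to 1 without 1 library. In the difference 170 genes became 620 by DESeq2, 706 with no filter, 262 with at least 10 counts in every library, 57 by limma on log2(FPKM + 0.1) and 79 to 172 without 1 library. Laminin calls higher there were 1, but 2 by DESeq2, with RLE size factors, library totals, no filter or at least 10 counts, and 1 to 2 without 1 library; lower 0, but 1 by DESeq2, with no filter or at least 10 counts, and 0 to 1 without 1 library. The counts of chains called between germ and somatic cells stayed within 1.5 times the main count.

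Same-numbered libraries did not deviate together (r at most 0.045), so the numbers were not taken as pairs; in saline every germ library correlated best with the somatic library of its own number (r 0.0366 to 0.045), a hint from the data only. The replicate block gave 65 genes and 1 laminin chain higher in germ cells, 1 higher in somatic cells, and 104 genes and 2 chains higher in the difference. Under the block the adjusted p of Lama3 in germ cells was 0.0914, that of Lamb3 in somatic cells 0.0623 and that of Lamb3 between dex germ and somatic cells 0.0719, all no longer called, and Lama1 was called in the difference (0.0446); the block changed no other call of a chain.

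Lamb3, at 20 to 87 counts in a library, had the widest errors, and its difference between saline germ and somatic cells was not detectable at this depth. With 3 libraries a group, p-values measure the spread between pools of litters.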
